A study of Mus musculus with 20 samples.

Results

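Plasminogen activation in 66cl4 and 67NR mammary tumours was followed through 5 genes of the 52783 in the count table: the activators Plau (urokinase) and Plat (tissue plasminogen activator), the urokinase receptor gene Plaur, and the inhibitor genes Serpinb2 (plasminogen activator inhibitor 2) and Serpine2 (protease nexin 1). They were listed by name and matched by Ensembl identifier (Plau ENSMUSG00000021822, Plaur ENSMUSG00000046223). The list was drawn up with results of these data known, and the study had selected Serpinb2 from the comparison of CD45+ cells between tumours. For these 5 genes that comparison, and the interaction that uses it, are therefore given as a description with no test.

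The study compared immune and non-immune cells of a metastatic and a non-metastatic tumour. 66cl4 and 67NR are sister cell lines of the 4T1 mouse breast cancer model, and 66cl4 is the metastatic line of the pair. Each line was injected into the mammary fat pad of young adult female BALB/cJ mice with an intact immune system, 5 animals per tumour, and no animal received a treatment. The tumours were dissociated and sorted on the pan-leukocyte protein CD45 into CD45+ and CD45- cells, and mRNA of each fraction was sequenced, which gave 20 libraries, 1 per animal and gate. CD45- cells hold the injected cancer cells together with the host's fibroblasts, vessels and other stroma, so a tumour difference in this gate sets 1 cancer cell line and its stroma against those of another line. In bulk libraries of this kind, fewer cells of a type and less RNA per cell cannot be told apart.

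Plasminogen is a circulating proenzyme made mainly by the liver. Urokinase, held at the cell surface by its receptor, and tissue plasminogen activator cut it to plasmin, which dissolves fibrin and degrades other matrix proteins. Serpins such as plasminogen activator inhibitor 2 and protease nexin 1 block the activators, and in breast cancer the urokinase system is known for its association with invasion.

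The promoters of Serpinb2 and Plaur are shown because these genes differed most between tumours in CD45+ cells among the 5. The sequences are from RefSeq, mouse build GRCm38.p6, and each is the 250 bases before the annotated start, read 5' to 3' on the + strand. RefSeq promoter windows were matched for 3 of the 5 genes, namely Plaur, Serpinb2 and Serpine2. Capitals mark matches to 4 motifs searched on both strands (TATAAA, the AP-1 site TGANTCA, the hypoxia response core ACGTG and CCAAT), and no match overlapped another.
Serpinb2 (chr1:107511173-107511422): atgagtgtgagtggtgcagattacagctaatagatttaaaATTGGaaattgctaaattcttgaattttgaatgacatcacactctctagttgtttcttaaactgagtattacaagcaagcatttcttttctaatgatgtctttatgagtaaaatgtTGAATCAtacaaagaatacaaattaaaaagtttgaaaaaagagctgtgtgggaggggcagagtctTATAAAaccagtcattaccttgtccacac
Plaur (chr7:24462233-24462482): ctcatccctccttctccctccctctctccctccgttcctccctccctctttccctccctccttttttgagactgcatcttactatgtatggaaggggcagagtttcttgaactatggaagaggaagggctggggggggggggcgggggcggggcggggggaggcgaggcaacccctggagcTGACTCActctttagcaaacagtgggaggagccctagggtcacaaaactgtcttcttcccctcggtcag
The Serpinb2 window holds TATAAA with its first base 29 bases before the start, TGAATCA at 94 bases and CCAAT, read on the reverse strand as ATTGG, at 210 bases. The start used for Serpinb2 lies inside the span RefSeq gives the gene, whose outermost transcript begins further upstream. The Plaur window holds TGACTCA at 69 bases. Both thus carry a TGANTCA match, which 6.75% of 32851 promoter windows of the same length have. TATAAA was found in 12.4%, CCAAT in 33.8% and ACGTG in 16.6% of these windows. The Serpine2 window (chr1:79858666-79858915, - strand) held none of the 4 motifs. Its GC content was 78.8%, against 59.6% for Plaur, 32.4% for Serpinb2 and a median of 52.4% over the windows. A match describes letters in the sequence and not a bound site.

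Libraries held 12960000 to 28080314 estimated counts. Ptprc, which encodes CD45, checked the gates, with 15890 to 28449 normalised counts (estimated counts divided by a size factor per library) in CD45+ libraries and 10.6 to 473 in CD45- libraries. Animals 5 and 6 of the 66cl4 tumours have 4 libraries whose titles name one gate and whose recorded cell type names the other. Ptprc followed the title in all 4, the title was used, and results are given without these animals where they matter. Of the cell type markers, the 24 immune genes had a CD45- level of 0.155 to 3.05% of their CD45+ level in 66cl4 tumours, with a median of 0.695%. In 67NR tumours this percentage ran from 0.637 to 307.5, with a median of 2.37%. The highest was that of Vcan, with means of 11007 normalised counts in CD45- and 3579 in CD45+ cells. Cxcr2 followed at 35.4% and the 4 mast cell genes at 22.4 to 32.0%. The 6 fibroblast genes had a CD45+ level of 4.03 to 8.81% of their CD45- level in 66cl4 and 5.41 to 15.4% in 67NR tumours. The 5 epithelial markers differed between the CD45- gates in summed level, with 353 to 395 CPM (counts scaled to a common library total) in 66cl4 and 7.21 to 22.5 in 67NR. Krt8 and Krt18 carried the sum, with means of 5353 and 1149 normalised counts in 66cl4 against 61.6 and 58.6 in 67NR CD45- cells. Epcam (12.1 against 32.8) and Cdh1 (20.8 against 32.9) had lower means in 66cl4 CD45- cells. Krt14 had 0 counts in all 67NR CD45+ libraries.

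**Figure D1:**
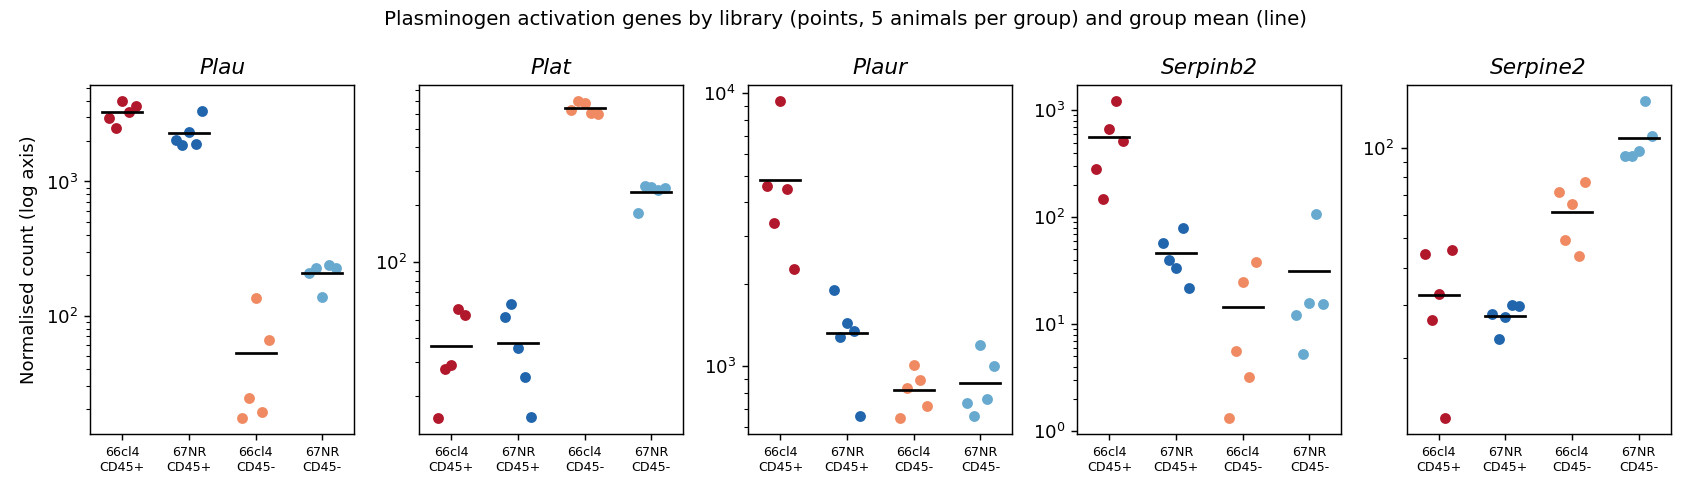
Normalised counts on a log axis of the 5 genes in each library (points, 5 animals per group) with the group mean (line), by tumour and gate. Plau sits high in CD45+ cells and Plat in CD45- cells of both tumours, whereas Plaur and Serpinb2 stand apart in 66cl4 CD45+ cells.

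Plau, the urokinase gene, was a gene of the CD45+ gate in both tumours. In 66cl4 CD45+ cells of animals 3, 4, 5, 6 and 7 it had 2985, 2508, 3997, 3288 and 3643 normalised counts, and in CD45- cells of the same animals 17.3, 24.3, 135, 19.1 and 65.9. In 67NR CD45+ cells of animals 1, 4, 5, 6 and 7 it had 2026, 1857.5, 2328, 1894.5 and 3339, and in the CD45- cells 206, 228, 138, 237 and 228. The CD45+ libraries of the tumours overlapped, while the CD45- libraries did not, by the narrow gap between 135 in 66cl4 animal 5 and 138 in 67NR animal 5. The order of the group means was 3284 ± 576 (SD, n = 5) in 66cl4 CD45+, 2289 ± 616 in 67NR CD45+, 207 ± 40.5 in 67NR CD45- and 52.3 ± 50.3 in 66cl4 CD45- cells.

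Plat, which encodes tissue plasminogen activator, had the opposite distribution. Its CD45- values in 66cl4 tumours were 629, 701, 682, 608 and 596 normalised counts, and its CD45+ values 15.3, 27.7, 28.9, 56.8 and 53.2. In 67NR tumours the CD45- values were 182, 251, 248, 239 and 245 and the CD45+ values 51.5, 60.5, 35.6, 25.2 and 15.4. All 66cl4 CD45- libraries lay above all 67NR CD45- libraries, and these above every CD45+ library. The means were 643 ± 46.3 in 66cl4 CD45-, 233 ± 29.1 in 67NR CD45-, 37.6 ± 18.5 in 67NR CD45+ and 36.4 ± 17.9 in 66cl4 CD45+ cells, and the last pair did not differ beyond its spread.

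Plaur, the gene of the receptor that anchors urokinase, was expressed in all 4 groups. In 66cl4 CD45+ cells it had 4574.5, 3342, 9395, 4477 and 2270.2 normalised counts, and in 66cl4 CD45- cells 648, 837, 1008, 891 and 719. The 67NR CD45+ values were 1909, 1280.5, 1439, 1352 and 656, and in 67NR CD45- cells 734, 661, 1200.3, 762.5 and 1004. Animal 5 held the highest 66cl4 CD45+ value, yet the lowest, in animal 7, was still above the highest of the other groups. The means in order were 4812 ± 2729, then 1327 ± 448 in 67NR CD45+, 872 ± 224 in 67NR CD45- and 820.5 ± 142 in 66cl4 CD45- cells. The latter 3 groups overlapped.

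Serpinb2, which encodes an inhibitor of urokinase known from activated myeloid cells, varied widely among animals. Its values in 66cl4 CD45+ cells were 281, 148, 673, 1231 and 516 normalised counts, and in 66cl4 CD45- cells 1.33, 5.61, 25.0, 3.19 and 37.9. The 67NR CD45+ values were 57.8, 39.6, 33.5, 80.3 and 21.6, and in 67NR CD45- cells 12.3, 5.25, 15.8, 108 and 15.3. The 66cl4 CD45+ libraries lay above all others, while the other 3 groups overlapped. The single 67NR CD45- library of animal 6 was above every 67NR CD45+ library.

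Serpine2, whose product protease nexin 1 blocks thrombin as well as the activators, was low throughout. In 66cl4 tumours it had 71.7, 49.3, 64.9, 43.6 and 76.9 normalised counts in CD45- and 44.5, 26.8, 32.8, 12.6 and 45.6 in CD45+ cells. In 67NR tumours it had 93.9, 93.8, 97.5, 144 and 109 in CD45- and 28.1, 23.1, 27.4, 30.0 and 29.8 in CD45+ cells. The means ran from 108 ± 21.2 in 67NR CD45- cells through 61.3 ± 14.3 in 66cl4 CD45- and 32.5 ± 13.6 in 66cl4 CD45+ to 27.7 ± 2.79 in 67NR CD45+ cells, and neighbouring groups overlapped except the CD45- pair.

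To compare genes with each other, counts were divided by transcript length and scaled to a common total (TPM). Among the activators, Plau made up a median of 98.99% of the summed Plau and Plat TPM in 66cl4 CD45+ and 98.6% in 67NR CD45+ cells. In CD45- cells this share was 50.04% in 67NR tumours, with a range of 37.4 to 55.0%, and 3.60% in 66cl4 tumours, with a range of 2.87 to 17.6%. In CD45+ cells the mean receptor level was 279 ± 151 TPM in 66cl4 and 74.9 ± 20.1 TPM in 67NR tumours, against 124 ± 23.6 and 85.7 ± 28.4 TPM for Plau. In CD45- cells Plaur stood at 48.7 ± 9.10 TPM in 66cl4 and 49.3 ± 9.91 TPM in 67NR tumours, where the ratio of Plaur to Plau TPM had medians of 53.5 and 5.53.

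Both inhibitor genes were compared in the same way. Serpinb2 made up a median of 92.6% of the summed Serpinb2 and Serpine2 TPM in 66cl4 CD45+ cells, with a range of 86.0 to 99.1%, and 65.5% in 67NR CD45+ cells, with a range of 44.5 to 74.8%, so the ranges did not overlap. In the CD45- gate the share was 11.2% in 66cl4 and 13.4% in 67NR tumours, and Serpine2 was the larger in every library. The mean level of Serpinb2 was 23.8 ± 14.6 TPM in 66cl4 CD45+ cells. Serpine2 stayed between 1.09 and 4.22 TPM in the group means.

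**Figure D2:**
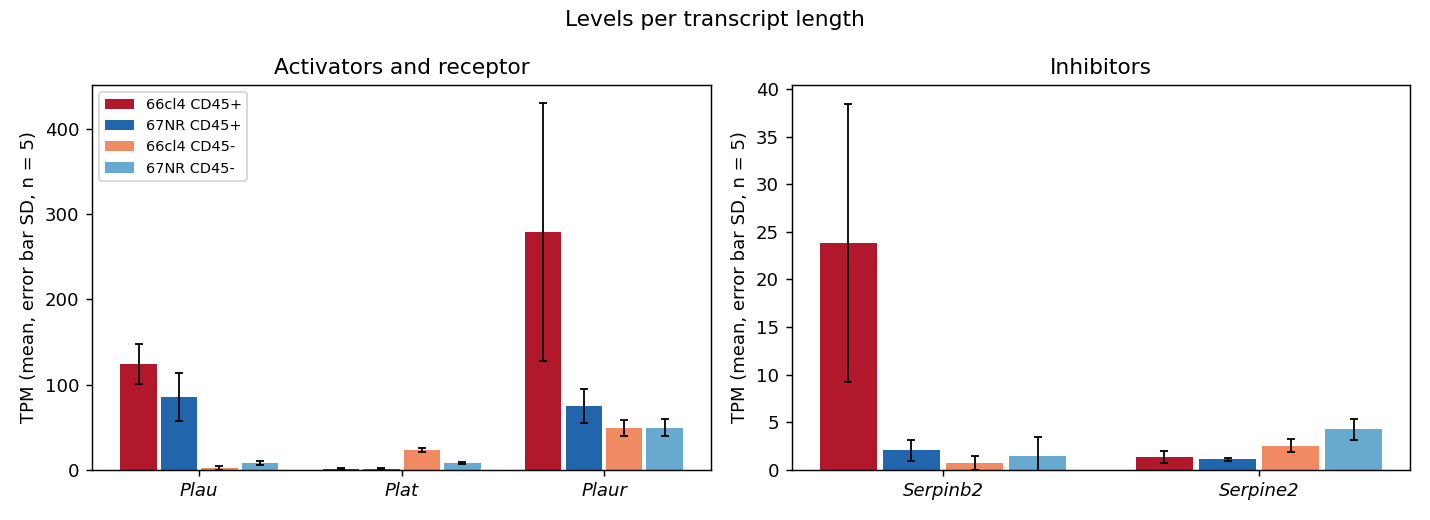
Mean TPM (bars, error bars SD over 5 animals, cut at 0) of the activators and receptor on the left and of 2 inhibitors on the right, by tumour and gate. Plau and Plaur lead in CD45+ cells, and Serpinb2 exceeds 5 TPM in the mean of 66cl4 CD45+ cells alone.

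Between gates of 66cl4 tumours, Plau, Plaur and Serpinb2 rose and Plat fell in CD45+ cells. Genes were called where edgeR's quasi-likelihood test gave a p below 0.05 after Benjamini-Hochberg adjustment over all genes tested, together with a log2 fold change beyond 1 in either direction. The gate comparisons share their CD45+ libraries with the comparison from which Serpinb2 was drawn, so they are not independent of it. All 5 genes passed the filter on low counts in every comparison, and 4 of the 5 were called here, where 44.4% of 14916 genes were called. The same 4 had libraries that did not overlap, as did 61.4% of all genes. The log2 fold change was 5.92 ± 0.53 (SE, n = 5 per group) for Plau, adjusted p = 8.76e-07 by edgeR, a 62.8-fold ratio of means that ran from 29.6-fold to 173-fold in single animals. Serpinb2 changed by 5.23 ± 0.75, adjusted p = 5.54e-05 by edgeR, and its CD45- values in animals 3 and 6 rest on 1 and 3 estimated counts. Plaur changed by 2.52 ± 0.33, adjusted p = 2.30e-05 by edgeR, and was higher in CD45+ cells in 5 of 5 animals, by 3.16-fold to 9.32-fold. Plat changed by -4.14 ± 0.27, adjusted p = 4.44e-08 by edgeR, and was 17.7-fold higher in the mean of CD45- cells.

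Serpine2 was the exception in 66cl4 tumours. Its log2 fold change of -0.94 ± 0.31, adjusted p = 0.0155 by edgeR, lay under the fold threshold. With the 2 gates of an animal paired as a block it was -1.01 ± 0.23, adjusted p = 0.00351 by edgeR, and was called. Leaving out the CD45- library of animal 4 or 6 or the CD45+ library of animal 3 or 7 also took it past the threshold, within -1.01 to -1.07, whereas without animals 5 and 6 it was -0.79, adjusted p = 0.0504 by edgeR. The 4 calls named above held without these animals, with log2 fold changes of 6.36 for Plau, 4.36 for Serpinb2, 2.16 for Plaur and -4.31 for Plat.

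Between gates of 67NR tumours, Plau rose and Plat and Serpine2 fell in CD45+ cells, which makes 3 of the 5 genes called where 39.8% of 15063 genes were. The libraries of the same 3 genes did not overlap, as for 55.5% of all genes. Plau changed by 3.46 ± 0.20 on the log2 scale, adjusted p = 4.92e-08 by edgeR, and by 8.003-fold to 16.9-fold in single animals. Plat changed by -2.63 ± 0.32, adjusted p = 2.07e-05 by edgeR, and Serpine2 by -1.96 ± 0.18, adjusted p = 2.32e-06 by edgeR. These 2 genes were thus higher in CD45- cells, in 5 of 5 animals each.

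Plaur and Serpinb2 did not pass in 67NR tumours. Plaur had a log2 fold change of 0.61 ± 0.26, adjusted p = 0.0597 by edgeR, and was 2.60-fold higher in CD45+ cells of animal 1 but at 0.654 of its CD45- level in animal 7. Serpinb2 had 0.56 ± 0.71, adjusted p = 0.510 by edgeR. The CD45- library of animal 6 decided that value. Without it the log2 fold change was 1.95 ± 0.46, adjusted p = 0.00340 by edgeR, and the gene was called. In that library the marker sums were 95.1 CPM for macrophages and 53.2 for neutrophils, within the range of the other 67NR CD45- libraries (61.2 to 216 and 36.7 to 55.7), while the epithelial and fibroblast sums of 22.5 and 1027 were the highest of the 5. Their part in the Serpinb2 value was not tested.

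**Figure D3:**
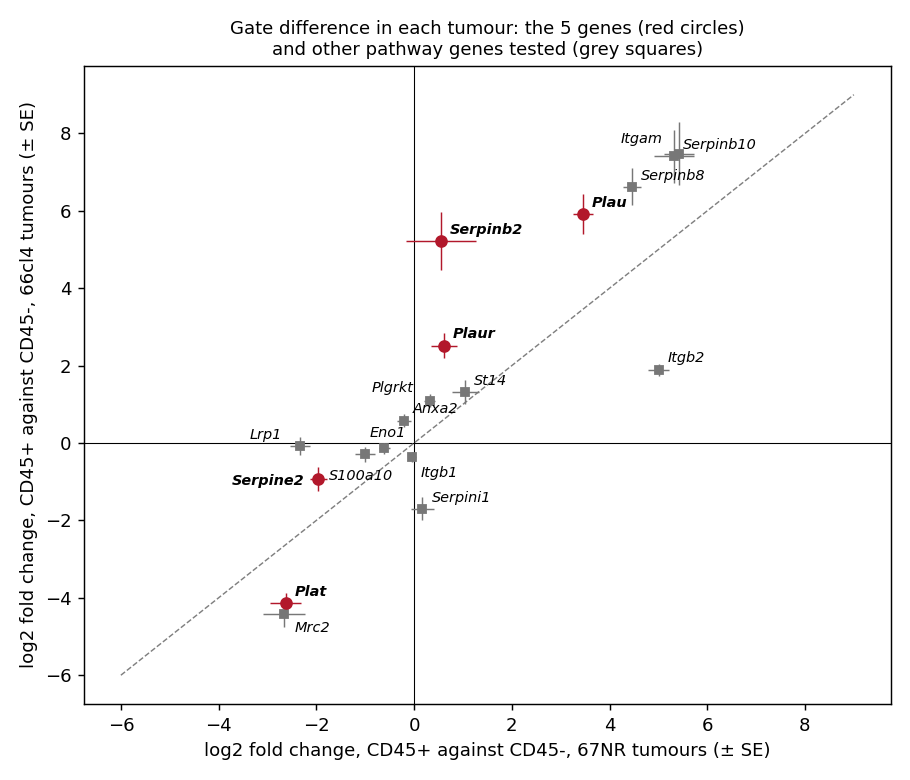
Log2 fold change (± SE) of CD45+ against CD45- cells in 66cl4 tumours (vertical axis) and 67NR tumours (horizontal axis) for the 5 genes (red circles) and 13 other pathway genes tested (grey squares), with the line of equal change dashed. Plau, Plaur, Serpinb2 and Serpine2 lie above the line and Plat below it. Plat and Serpine2 lie in the quadrant lower in CD45+ cells of both tumours.

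The levels of Plau in CD45- cells can be set beside those of immune markers. Its CD45- mean was 1.59% of its CD45+ mean in 66cl4 tumours, inside the 0.155 to 3.05% of the 24 immune markers. In 67NR tumours it was 9.06%, inside the 0.637 to 307.5% of these markers and above their median of 2.37%. There it lay inside the ranges of the neutrophil (1.47 to 35.4%) and monocyte markers (0.983 to 307.5%). Cxcr2 and Vcan set the upper ends of these ranges, and every other neutrophil and monocyte marker was below Plau. Plau thus lay inside these ranges only through Cxcr2 and Vcan. It was above the 1.94 to 3.83% of the 6 macrophage markers and the 0.637 to 1.97% of the T cell markers. It was below the 22.4 to 32.0% of the 4 mast cell markers. The corresponding figure for Serpinb2 was 2.56% in 66cl4 tumours and 67.2% in 67NR tumours. For Plaur it was 17.1 and 65.7%, above the largest immune marker value in 66cl4 tumours. For Plat the CD45+ mean was 5.66% of the CD45- mean in 66cl4 tumours, inside the range of the fibroblast markers, and 16.1% in 67NR tumours, just above it. The 3 keratins ran from 5.09 to 9.91% in 66cl4 and from 0 to 16.9% in 67NR tumours, which also held Plat. Epcam and Cdh1 stood at 142 and 1893% in 66cl4 and at 101 and 690% in 67NR tumours. The 5 endothelial markers ran from 20.1 to 1248% in 66cl4 and from 9.10 to 138% in 67NR tumours. How far cells or RNA of the other gate contributed to any of these levels was not tested.

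In CD45- cells the activators differed between tumours in opposite directions. Plat was higher in 66cl4 CD45- cells by 1.498 ± 0.10 on the log2 scale, adjusted p = 2.01e-08 by edgeR, a 2.76-fold ratio of means. Plau was lower, with a log2 fold change of -1.93 ± 0.52, adjusted p = 0.00723 by edgeR, and a mean in 67NR CD45- cells 3.97 times that in 66cl4. These 2 of the 5 genes were called, where 32.2% of 14844 genes were called, and 3 of the 5, including Serpine2, had libraries that did not overlap, as did 52.9% of all genes. Serpine2 had a log2 fold change of -0.79 ± 0.19, adjusted p = 0.00237 by edgeR, under the fold threshold. Without animals 5 and 6 the values were 1.52 for Plat, -2.47 for Plau and -0.66 for Serpine2, with the same calls.

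Ptprc, like Plau, had a lower mean in 66cl4 CD45- cells. In the CD45- gate Ptprc averaged 75.2 ± 69.0 normalised counts in 66cl4 and 267 ± 136 in 67NR tumours, which differ by -1.79 ± 0.66 on the log2 scale, adjusted p = 0.0361 by edgeR. Among the 66cl4 CD45- libraries, those of animals 5 and 7 had both the most Plau (135 and 65.9) and the most Ptprc (138 and 161). Among the 67NR CD45- libraries, animal 5 had the least of both (138 and 145). There the most Plau was in animal 6 (237) and the most Ptprc in animal 4 (473). The highest mast cell sum was in animal 7, where Plau was 228. Mast cell markers summed to 23.5 to 1027 CPM in 67NR and 0 to 3.03 in 66cl4 CD45- libraries, and macrophage markers to 61.2 to 216 and 6.51 to 93.1. Of the epithelial markers, the 3 keratins had higher means in 66cl4 CD45- cells, as Plat did, while Epcam and Cdh1 had lower ones. Endothelial markers summed to 28.0 to 60.1 CPM in 66cl4 and 59.7 to 247 in 67NR CD45- libraries. Fibroblast markers summed to 432 to 797 and 565 to 1027 CPM there. The part of these cells in the Plau and Plat results was not tested.

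Plaur and Serpinb2 showed no detectable tumour difference in CD45- cells. Plaur had a log2 fold change of -0.06 ± 0.17, adjusted p = 0.788 by edgeR, and its sign turned without the 66cl4 library of animal 3 or 7 or the 67NR library of animal 5 or 7, at values up to 0.090. Serpinb2 had -1.06 ± 0.95, adjusted p = 0.347 by edgeR, and 0.31, adjusted p = 0.733 by edgeR, without the 67NR CD45- library of animal 6.

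In CD45+ cells the values of the 5 genes are a description. The log2 fold change of 66cl4 against 67NR was 3.63 ± 0.58 for Serpinb2, 1.85 ± 0.39 for Plaur, 0.54 ± 0.17 for Plau, 0.24 ± 0.32 for Serpine2 and -0.03 ± 0.44 for Plat. The libraries of Serpinb2 and Plaur did not overlap between tumours, as for 15.1% of the 14676 genes, and nothing is read from this count. Without animals 5 and 6 their values were 2.76 and 1.35. Summed neutrophil markers had a higher median in 66cl4 CD45+ libraries (5342 against 905 CPM), with ranges of 2529 to 6199 and 409 to 2583. Macrophage markers summed to 2318 to 3569 and 3242 to 5363 CPM, and mast cell markers to 63.5 to 184 and 918 to 1442. The neutrophil sum of 66cl4 CD45+ cells was highest in animal 3, with Serpinb2 at 281, and lowest in animal 7, with Serpinb2 at 516. Plaur was lowest in animal 7 of each tumour, as the neutrophil sum was. None of the 6 neutrophil markers was at 0 in either group, and their part in the Serpinb2 and Plaur values was not tested.

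The difference between gates of the tumour effect, also a description here, was 4.72 ± 1.10 on the log2 scale for Serpinb2, 2.47 ± 0.53 for Plau, 1.93 ± 0.43 for Plaur, 1.03 ± 0.36 for Serpine2 and -1.48 ± 0.42 for Plat. A positive value means that the 66cl4 level relative to 67NR was higher in CD45+ than in CD45- cells. The sign of each was the same without animals 5 and 6 and with the replicate block.

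**Figure D4:**
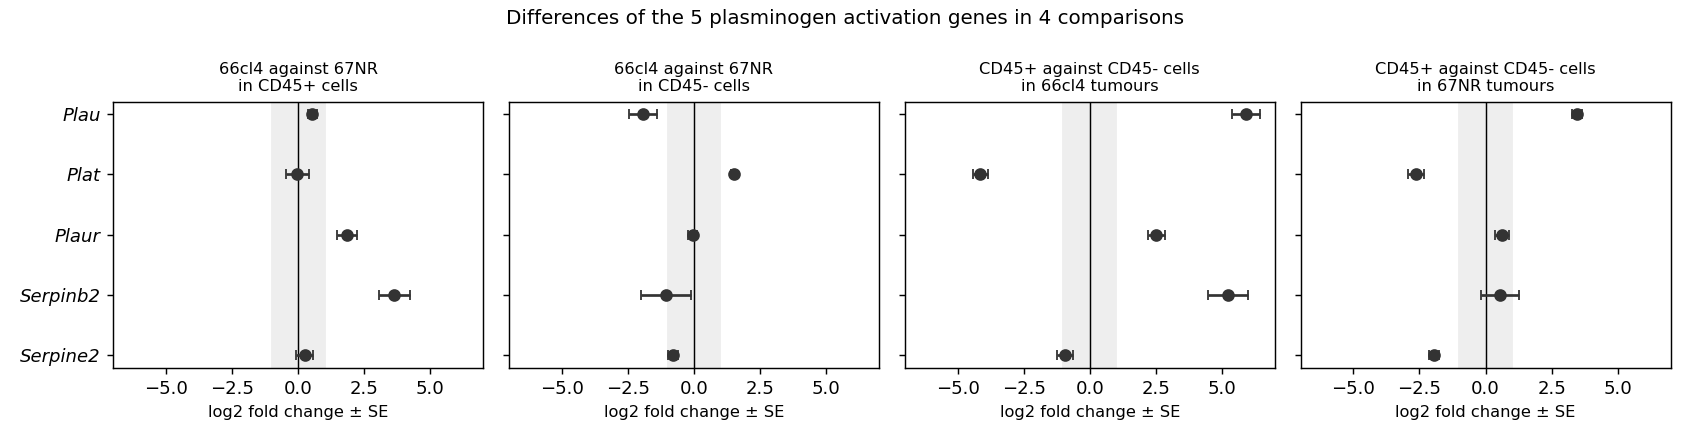
Log2 fold changes (points, ± SE) of the 5 genes in 4 comparisons, with the range within the fold threshold shaded. The tumour comparison in CD45+ cells is a description with no test, and Plau lies on opposite sides of 0 in the CD45+ and CD45- tumour comparisons.

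The rest of the pathway was followed in 22 further genes, of which 13 had enough counts to be tested between pairs of groups. Plg, which encodes plasminogen itself, had 0 counts in all 20 libraries, which allows up to 3 counts per library. The inhibitor genes Serpina5, Serpinf2, Cpb2 and A2m, the protease genes Klkb1 and F12, and Vtn and Serpinb7 never exceeded 25 estimated counts. They were not tested between pairs of groups. In CD45- cells 2 of 13 pathway genes were higher and 1 was lower in 66cl4 tumours, 3 of 13 where 32.2% of all genes were called, with a median log2 fold change of -0.28 against -0.01 over all genes. Between gates, 6 rose and 2 fell in CD45+ cells of 66cl4 tumours and 5 rose and 3 fell in 67NR tumours, which is 8 of 13 in each where 44.4 and 39.8% of all genes were called, with medians of 0.58 and 0.17 against 0.00 and -0.05. In CD45+ cells 3 were higher and 1 was lower in 66cl4 tumours, 4 of 13 where 11.8% of all genes were called, with a median of 0.71 against 0.01. The tumour effect differed between gates for 11 of 14 genes tested over all libraries, where it did for 43.1% of 16453 genes. Nothing particular to the list is read from these counts. St14, which encodes the membrane protease matriptase, rose in CD45+ cells of both tumours, by 1.32 and 1.05 on the log2 scale. In 67NR tumours its value was 0.999 with the gates of an animal as a block, 0.93 without the CD45- library of animal 7 and 0.87 without the CD45+ library of that animal, each under the fold threshold.

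Serpini1, the gene of neuroserpin, which inhibits tissue plasminogen activator, was higher in 66cl4 than in 67NR CD45- cells by 2.58 ± 0.12, adjusted p = 2.47e-10 by edgeR, in the same group in which Plat was higher. Between gates of 66cl4 tumours it fell in CD45+ cells, with a log2 fold change of -1.70 ± 0.29, adjusted p = 1.99e-04 by edgeR.

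The list held 5 partners of the urokinase receptor. Of these, 3 were called between gates in 66cl4 and 4 in 67NR tumours, where 44.4 and 39.8% of all genes were. Between tumours 2 were called in CD45- and 2 in CD45+ cells, where 32.2 and 11.8% of all genes were. Nothing particular to these partners is read from the counts. Itgb1, an integrin chain found on most cells, was called in none of these comparisons, with log2 fold changes of -0.36 to 0.43. Itgam and Itgb2, the chains of the leukocyte integrin Mac-1 that binds the receptor, rose in CD45+ cells of 66cl4 tumours by 7.47 and 1.90 and of 67NR tumours by 5.42 and 5.01 on the log2 scale. Itgb2 was 3.92 ± 0.16 higher in 66cl4 than in 67NR CD45- cells, adjusted p = 1.01e-10 by edgeR, with 3434 ± 210 normalised counts against 232 ± 64.2. In these 66cl4 CD45- libraries Itgam averaged 102 ± 111 and Ptprc 75.2, so the level of Itgb2 was not matched by that of Itgam. Lrp1, an endocytic receptor that clears urokinase bound to its inhibitors, was lower in 66cl4 CD45- cells, with a log2 fold change of -1.62 ± 0.14, adjusted p = 2.03e-07 by edgeR. Between gates of 66cl4 tumours Lrp1 was not called, at -0.08 ± 0.23, adjusted p = 0.755 by edgeR. Mrc2, which encodes a collagen receptor associated with the urokinase receptor, fell in CD45+ cells of both tumours, by 4.41 and 2.66.

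Serpinb2 lies among related serpin genes on chromosome 1, in the RefSeq order Serpinb7, Serpinb2, Serpinb10 and Serpinb8. Serpinb10 was called with Serpinb2 between gates of 66cl4 tumours, by 7.41 ± 0.69, adjusted p = 1.24e-06 by edgeR, and also in 67NR tumours, by 5.32 ± 0.41, adjusted p = 5.64e-07 by edgeR. Serpinb2 was called in 67NR tumours only without the CD45- library of animal 6, and the difference between both genes was not tested. Between tumours in CD45+ cells Serpinb10 was higher in 66cl4 by 2.73 ± 0.43, adjusted p = 0.00167 by edgeR, with 2152 ± 1249 against 327 ± 117 normalised counts. Animal 6 had the most of both genes among 66cl4 CD45+ cells and animal 4 the least, at 4180.2 and 751.99 for Serpinb10. Serpinb8 rose in CD45+ cells of both tumours, by 6.62 and 4.46, and its tumour difference in CD45+ cells was 0.99 ± 0.17, adjusted p = 0.00199 by edgeR, just under the fold threshold. Similar sequences can share reads, so the counts of this family are uncertain where the estimation divided them.

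The genes most like each of the 5 were found by the Pearson correlation of log2(CPM + 1) over the 20 libraries among 16453 genes. This describes a likeness that group differences dominate. Plau was nearest to Sirpa, Fcer1g and Evi2b, with r of 0.991, 0.990 and 0.990. Plat was nearest to C1s1, Vgll3 and Ptprk, with r of 0.993, 0.992 and 0.991. Plaur was nearest to Ndel1 (r = 0.969), followed by 4933432I03Rik and 4732465J04Rik, which were low in CD45- cells. Serpinb2 was nearest to Slc7a2, which encodes a transporter of cationic amino acids, with r = 0.982 and 386 normalised counts in 66cl4 CD45+ cells against 21.5 to 45.8 in the means of the other groups. Baiap2l1 and Edil3 followed with r of 0.947 and 0.940. Serpine2 was nearest to Nomo1, Cpxm1 and Abcf2, with r of 0.949, 0.944 and 0.942. Among the 5 genes themselves, Plaur and Serpinb2 had r = 0.853 over all libraries and r = 0.206 once the group means were subtracted, and Plau and Plat had -0.959 and -0.03 in the same way.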

How the data were processed

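RNA of sorted CD45+ and CD45- cells was prepared with a SENSE mRNA-Seq kit. The authors trimmed reads with fastp, estimated transcript counts with Salmon 1.3.0 and combined them per gene with tximport, leaving the deposited estimated counts unnormalised. Labels and methods give the human build GRCh38, but the identifiers are mouse, and the mouse reference is not given in the sources used here. Reads shared by similar genes can be divided between them.

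Libraries were grouped by sample title. Counts were rounded to whole numbers (changes of at most 0.5) and tested by quasi-likelihood in edgeR 4.0.16 under R 4.3.3 (TMM, minimum count 10 in the group filter, minimum total 15, robust fit, Benjamini-Hochberg adjustment), each fit holding only the groups compared, or all 20 libraries for the interaction. Standard errors are the log2 fold change divided by the square root of F. Normalised counts use DESeq2 1.42.0 size factors. TPM used the longest protein-coding transcript of each gene, and 1291 identifiers without a length held 2.58% of counts. A count of 0 allows 3 counts, which covers counting error only. No replicates were alike within sampling noise. The main edgeR fits, and DESeq2 for pairs of groups, were also run on simulated data with a fixed dispersion and no pairing of gates. The other alternatives were not.

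The 5 genes, the pathway list and the markers were chosen with earlier results of these data known. By the rule for named genes the text gives the 5 genes, genes of a list of 22 other pathway genes, and the 3 genes most like each of the 5. The list held 1 further gene beside these 22, which is not reported here. The gates of 1 animal are paired by design. Deviations of the 2 gates of an animal had correlations between 0.0315 and 0.282 for 66cl4, and between -0.0035 and 0.378 for 67NR. Alternatives were DESeq2, other size factors and filters, all libraries in 1 fit, the replicate block, the removal of 66cl4 animals 5 and 6, and the removal of each replicate.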

Additional observations from a re-analysis of the deposited data

Results flagged for a closer look

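Of 24 groups examined, 3 held 1 library far from the rest by Dixon's test, where chance gives about 1.2. Plat was 181.64 normalised counts in 67NR CD45- cells of animal 1, against 239.06 to 250.57 in the others, which kept Plat of this group below the 66cl4 CD45- libraries in either case. Serpinb2 was 107.81 in 67NR CD45- cells of animal 6, against 5.25 to 15.8. Animal 7 had 16917109 estimated counts in its 67NR CD45- library, fewer than the other 4 of the group.

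The tumour effect differed between gates for 11 other genes of the pathway by the interaction test of edgeR, where 43.1% of all genes did. The difference of log2 fold changes, positive where 66cl4 was relatively higher in CD45+ cells, was 5.37 for Serpinb7, 2.27 for Lrp1, 2.17 for Serpinb8 and 2.08 for Itgam. It was 0.80 for Plgrkt, 0.80 for Anxa2, 0.73 for S100a10 and 0.49 for Eno1, which encode plasminogen receptors at the cell surface. It was -3.10 for Itgb2, -1.86 for Serpini1 and -1.72 for Mrc2. Without 66cl4 animals 5 and 6 the values of S100a10, Eno1 and Mrc2 no longer passed, at 0.65, 0.41 and -1.65. Serpinb10 did not pass, at 2.11, adjusted p = 0.0628 by edgeR, but passed without these animals, at 3.02, adjusted p = 0.0151 by edgeR, and with the replicate block, at 2.15, adjusted p = 0.0195 by edgeR. Serpinb7 had at most 18 estimated counts in any library.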

How the results depend on the processing

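Of 335 alternative values of the 5 genes' log2 fold changes, 324 were counted as the same as the main result. This count did not require the same sign or the same side of the fold threshold. Plat between tumours in CD45+ cells was counted as the same, though negative in the main fit and positive with the replicate block. With that block Serpinb2 also crossed the fold threshold, between gates of 67NR tumours and between tumours in CD45- cells, without being called. Plaur between tumours in CD45- cells ranged from -0.14 to 0.090 when single libraries were left out, and Serpinb2 there from -1.71 to 0.31. Serpine2 between gates of 66cl4 tumours ranged from -0.73 to -1.07 over single removals and was -1.01 with the replicate block. Serpinb2 between gates of 67NR tumours ranged from 0.27 to 1.95 over single removals. The cause was not tested. Serpinb10 between tumours in CD45- cells, 0.64 in the main result, was -0.70 without 66cl4 animals 5 and 6, and ranged from -0.22 to 0.99 over single removals.

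In CD45- cells 3 pathway genes were called between tumours, but 5 with DESeq2, without a filter and with all libraries in 1 fit, and 6 without 66cl4 animals 5 and 6. Single removals gave 3 to 6. Some alternatives tested genes that the main filter left out, and of 17 alternatives Serpinb7 was called in 10 and Vtn in 3. The number of genes tested thus differed, and nothing is read from these counts. In the main fit 32.2% of all genes were called, and the shares under the alternatives are not given here. In CD45+ cells 4 were called, where 11.8% of all genes were in the main fit, and 2 without animals 5 and 6. There Mrc2, at -2.23, adjusted p = 0.0148 by edgeR, was not called with the replicate block (-1.67, adjusted p = 0.162 by edgeR). Numbers shared across tumours do not pair animals, and their deviations correlated by -0.21 to -0.03 in CD45- and 0.0044 to 0.117 in CD45+ cells. The replicate block changed no other call of the 5 genes. Low counts limit Serpinb2 in CD45- cells.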
